A study of Mus musculus with 2 samples.

Results

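Txnip, Arrdc4, Glo1, Akr1b3 and Mlxip are 5 mouse genes tied to the handling of glucose, and they were taken by symbol from the 31053 gene rows of the deposited matrices. The measurements are single-cell 3' RNA counts from wound monocytes and macrophages taken on day 6 after skin injury. The libraries came from diabetic mice and from non-diabetic mice, and each held cells pooled from 2 animals. No test was possible, because each condition is 1 library. The 95% intervals reflect counting error and leave out the variation among mice. The labels give neither the diabetic model, the strains, the ages nor any blood glucose value. They do speak of strains, so a strain difference and diabetes cannot be told apart in any comparison here.

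Txnip and Arrdc4 encode alpha-arrestins that lower glucose uptake, and Txnip also binds and inhibits thioredoxin. Mlxip encodes MondoA, a transcription factor that pairs with Mlx, senses phosphorylated glucose and switches on Txnip and Arrdc4. Glo1 encodes glyoxalase I, which uses glutathione to detoxify methylglyoxal, a reactive by-product of glycolysis that builds up in diabetes. Akr1b3 encodes aldose reductase, the first enzyme of the polyol pathway, which turns surplus glucose into sorbitol. Some inbred mouse strains are known to carry extra copies of a segment that includes Glo1. The matrices hold no genotype, and gene copy number was not tested.

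The DNA letters that MondoA and Mlx read are carbohydrate response elements, pairs of E-box-like motifs a fixed distance apart. The 250 bases before the RefSeq start site are shown for both alpha-arrestin genes, the known MondoA targets, and for Glo1, which is no textbook target. RefSeq gave promoters on GRCm38.p6 for 4 of the 5 genes, not for Akr1b3. Capitals mark a match to CACGNG, 5 free bases and CNCGNG (the element), or to the E-box CACGTG. The windows are chr3:96557707-96557956 on the plus strand for Txnip, chr7:68749239-68749488 on the minus strand for Arrdc4 and chr17:30612660-30612909 on the minus strand for Glo1.
Txnip: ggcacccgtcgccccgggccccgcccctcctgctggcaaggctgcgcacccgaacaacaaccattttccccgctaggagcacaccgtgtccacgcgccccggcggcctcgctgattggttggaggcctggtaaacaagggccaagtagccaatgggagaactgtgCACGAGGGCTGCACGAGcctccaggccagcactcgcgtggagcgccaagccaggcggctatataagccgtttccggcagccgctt
Arrdc4: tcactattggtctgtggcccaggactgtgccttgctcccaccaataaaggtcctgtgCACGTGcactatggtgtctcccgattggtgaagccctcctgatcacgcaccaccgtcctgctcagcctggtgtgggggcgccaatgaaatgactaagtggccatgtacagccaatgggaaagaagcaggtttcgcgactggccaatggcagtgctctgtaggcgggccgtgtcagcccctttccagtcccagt
Glo1: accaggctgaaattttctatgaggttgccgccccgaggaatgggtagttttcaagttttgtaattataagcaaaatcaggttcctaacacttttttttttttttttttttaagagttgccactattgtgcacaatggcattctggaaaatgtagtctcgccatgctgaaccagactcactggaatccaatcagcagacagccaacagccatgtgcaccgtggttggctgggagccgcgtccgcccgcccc

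Txnip held 1 match to the element, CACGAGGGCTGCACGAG, and Arrdc4 held 1 copy of CACGTG. On either strand of windows that also took in the 50 bases after the start, the element occurred in 0.365% of 32851 promoters and the E-box in 7.15%. Neither motif was found in the Glo1 window or in the Mlxip window. A match is a run of letters, not a measured binding site, and a window without it says nothing about the factor.

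The filter of at least 500 genes and under 10% mitochondrial unique molecular identifiers (UMIs) kept 1755 of 2214 diabetic barcodes and 1123 of 2026 non-diabetic barcodes. The kept cells held 30435047 UMIs in the diabetic library and 15429273 UMIs in the non-diabetic library, with medians of 16314 UMIs per diabetic cell and 14079 UMIs per non-diabetic cell. Both libraries carried the myeloid transcript Lyz2, at 14315 UMIs per 1000000 (CPM) in the diabetic library and 11864 CPM in the non-diabetic library. Summed macrophage markers stood at 9791 CPM in diabetic cells against 4909 CPM in non-diabetic cells. Summed classical monocyte markers stood at 3767 CPM in diabetic cells against 6831 CPM in non-diabetic cells. Neutrophil markers reached 4588 CPM in the diabetic library, against 239 CPM in the non-diabetic library, and fibroblast markers reached 18.0 CPM in the diabetic library, against 238 CPM in the non-diabetic library. Of 16 clusters, 11 were over 90% from a single library, so a library sum compares unlike cells. The libraries shared 6 barcode sequences, of which 1 was kept in both.

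Over all kept cells, Glo1 had the largest ratio of the 5 genes. It had 3575 UMIs or 117 CPM in the diabetic library, against 366 UMIs or 23.7 CPM in the non-diabetic library. That is 4.95-fold higher in diabetic cells (interval 4.45 to 5.53), rank 277 among 12337 genes with at least 20 UMIs. Txnip had 2941 UMIs or 96.6 CPM in the diabetic library, against 910 UMIs or 59.0 CPM in the non-diabetic library. Its level was 1.64-fold higher in diabetic cells (1.52 to 1.77). Akr1b3 stood at 81.6 CPM in the diabetic library, against 58.3 CPM in the non-diabetic library. The ratio was 1.40 (1.29 to 1.51), short of 1.5-fold.

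The other alpha-arrestin and the sensor were nearly level in these sums. Arrdc4 stood at 75.8 CPM in the diabetic library, against 80.5 CPM in the non-diabetic library, a log2 ratio of diabetic over non-diabetic of -0.09 (-0.19 to 0.01). Mlxip stood at 18.2 CPM in the diabetic library, against 19.6 CPM in the non-diabetic library, a log2 ratio of -0.11 (-0.31 to 0.10). So 2 of the 5 members, Glo1 and Txnip, were at least 1.5-fold higher in the diabetic library and none was 1.5-fold lower. Among all 12337 measured genes, 18.7% were at least 1.5-fold higher in the diabetic library and 12.9% at least 1.5-fold lower. Their median log2 ratio was 0.12. A count of 2 in 5 gives little to read against that background. By its ratio, Glo1 stood at percentile 97.8 of the measured genes and Txnip at percentile 85.8.

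**Figure D1:**
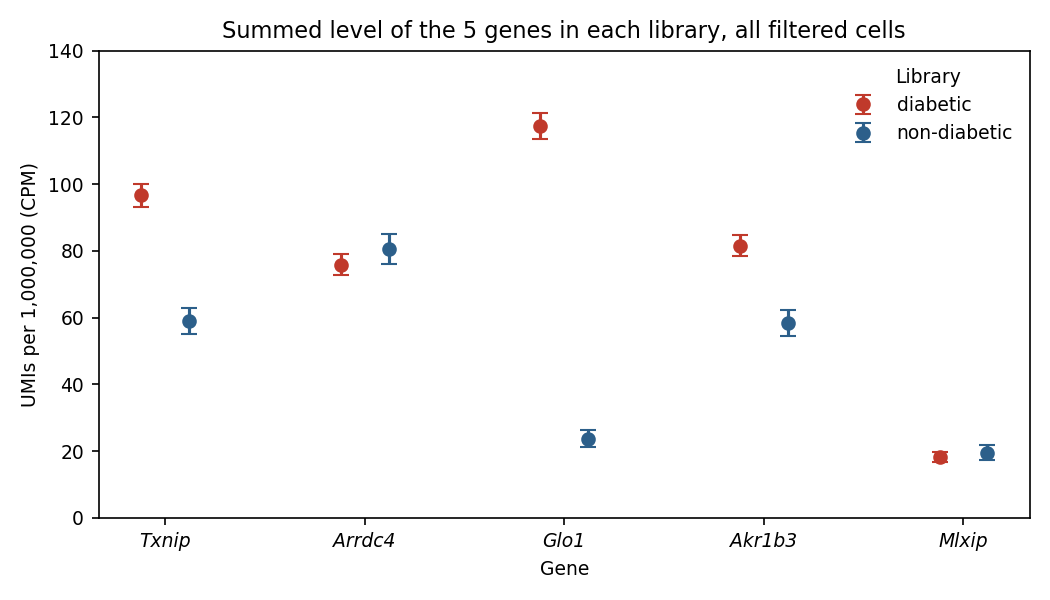
Summed level of each gene in CPM over all filtered cells of the diabetic library (red, left) and of the non-diabetic library (blue, right), with exact 95% Poisson intervals that cover counting error only. Glo1 shows the widest gap, at 117 CPM in the diabetic library, against 23.7 CPM in the non-diabetic library, while Arrdc4 and Mlxip lie close together.

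The levels were also read cell by cell. A Glo1 UMI was seen in 75.4% of diabetic cells and 24.4% of non-diabetic cells, with medians of 2 and 0 UMIs per cell. At most 70 Glo1 UMIs were counted in a diabetic cell and at most 5 in a non-diabetic cell. After each cell was thinned to 2000 UMIs, which left out 25 diabetic and 37 non-diabetic cells, the share with Glo1 was 20.1% of diabetic cells (18.2 to 22.0) and 3.78% of non-diabetic cells (2.72 to 5.09). Txnip was then seen in 16.9% of diabetic cells and 10.3% of non-diabetic cells, and unthinned in 50.1% of diabetic cells and 34.3% of non-diabetic cells. Arrdc4 was seen after thinning in 13.3% of diabetic cells and 15.1% of non-diabetic cells, but unthinned in 62.9% of diabetic cells and 47.2% of non-diabetic cells, so its order turns with depth. Akr1b3 was seen after thinning in 14.9% of diabetic cells and 10.0% of non-diabetic cells, and Mlxip in 3.87% of diabetic cells and 3.78% of non-diabetic cells. No cell type in these libraries is known to lack these genes, so no share of background RNA can be set beside these values.

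To ask whether each gene differed in every cell state or in 1, levels were compared within clusters. This used the 4 clusters to which each library gave at least 30 cells. The first was classical monocyte-like, marked by Plac8, Ly6c2 and Chil3, with 134 diabetic and 167 non-diabetic cells. The second was led by Col1a1, Rarres2 and Col3a1, also carried macrophage markers, and had 187 diabetic and 31 non-diabetic cells. The third, conventional dendritic cell-like and led by Cd7, Klrd1 and Ccl22, had 62 diabetic and 114 non-diabetic cells. The last was led by Igfbp3 and the endothelial genes Plvap and Emcn and had 42 diabetic and 96 non-diabetic cells. The Col1a1-led and Igfbp3-led clusters are left unnamed, because a few cells carried the stromal genes that lead them. In the Col1a1-led cluster, 13 of 187 diabetic cells and 2 of 31 non-diabetic cells had at least 3 UMIs of fibroblast, endothelial or keratinocyte markers, whose summed level was 35.1 CPM in diabetic and 8384 CPM in non-diabetic cells. In the Igfbp3-led cluster, 5 of 42 diabetic and 5 of 96 non-diabetic cells did, at 944 CPM in diabetic and 33.0 CPM in non-diabetic cells.

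Glo1 was higher in the diabetic library in all 4 clusters. It stood at 129 CPM in diabetic and 38.8 CPM in non-diabetic cells of the monocyte-like cluster, a log2 ratio of 1.73 (1.39 to 2.09). In the Col1a1-led cluster it stood at 141 CPM in diabetic and 37.0 CPM in non-diabetic cells, a log2 ratio of 1.89. In the dendritic cell-like cluster it stood at 98.9 CPM in diabetic and 25.9 CPM in non-diabetic cells, a log2 ratio of 1.93. The intervals of these 3 ratios overlapped. In the Igfbp3-led cluster Glo1 stood at 199 CPM in diabetic and 31.7 CPM in non-diabetic cells, a log2 ratio of 2.64, which without the stromal-marker cells was 1.68 (1.09 to 2.28). In 2 further clusters, under the limit of 30 cells, Glo1 stood at 97.6 CPM in 29 diabetic and 25.4 CPM in 194 non-diabetic cells of the interferon-response Ifit2-led cluster and at 136 CPM in 222 diabetic and 40.3 CPM in 15 non-diabetic cells of the Cx3cr1-led cluster. Its lowest ratio over the 4 clusters ranked 7 among the 6960 genes measured in each of them.

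Arrdc4, nearly equal in the library sums, was also higher in the diabetic library in each of the 4 clusters. In the monocyte-like cluster it stood at 66.9 CPM in diabetic and 30.8 CPM in non-diabetic cells, a log2 ratio of 1.12 (0.70 to 1.55). In the Col1a1-led cluster it stood at 78.4 CPM in diabetic and 32.4 CPM in non-diabetic cells, a log2 ratio of 1.23 from 14 non-diabetic UMIs. In the dendritic cell-like cluster it stood at 75.1 CPM in diabetic and 31.6 CPM in non-diabetic cells, a log2 ratio of 1.25. In the Igfbp3-led cluster it stood at 59.9 CPM in diabetic and 34.4 CPM in non-diabetic cells, a log2 ratio of 0.80. Without stromal-marker cells the 4 ratios ran from 0.97 to 1.27. Glo1 and Arrdc4 were thus at least 1.5-fold higher in diabetic cells of all 4 clusters, which held for 42 of 6960 genes, or 0.603%, while 0.991% were at least 1.5-fold lower in all 4. Gsr, the glutathione reductase, was another of these genes. In the Ifit2-led cluster, with 29 diabetic and 194 non-diabetic cells, Arrdc4 had a log2 ratio of 0.58 (0.01 to 1.09), just short of that fold.

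The Arrdc4 result depended on how cells were grouped. When clusters were drawn after centring each gene within its library, 5 clusters were comparable and the Arrdc4 log2 ratios ran from -0.31 to 1.23, with a median of 0.14. In 2 of those 5 clusters, whose largest shares came from the Nrg1-led cluster (43.9%) and the Tppp3-led cluster (61.4%), Arrdc4 was lower in diabetic cells by value, with intervals that took in 0. Cells were also split by the monocyte marker Ly6c2 (at least 2 UMIs) and the macrophage markers C1qa, C1qb and C1qc (at least 5 UMIs together). Arrdc4 then ranged from -0.38 (-0.51 to -0.24) in cells below both limits to 0.52 (0.28 to 0.77) in cells past the Ly6c2 limit alone. In the cells below both limits, 747 diabetic and 598 non-diabetic, Arrdc4 was thus lower in diabetic cells beyond counting error. Glo1 ranged from 1.90 to 2.49 over the same gates.

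The Txnip ratio was above 1.5-fold in 3 of the 4 clusters, and whether clusters differ in it was not tested. In the monocyte-like cluster it stood at 105 CPM in diabetic and 93.1 CPM in non-diabetic cells, a log2 ratio of 0.17 (-0.11 to 0.45). In the dendritic cell-like cluster it stood at 172 CPM in diabetic and 108 CPM in non-diabetic cells, a log2 ratio of 0.68 (0.40 to 0.96). In the Col1a1-led cluster it stood at 154 CPM in diabetic and 76.3 CPM in non-diabetic cells, a log2 ratio of 0.99. Txnip, then, was above counting error in the dendritic cell-like and Col1a1-led clusters and within it in the monocyte-like cluster. The widest gap, a log2 ratio of 1.38 in the Igfbp3-led cluster at 82.9 CPM in diabetic and 31.7 CPM in non-diabetic cells, was 0.02 (-0.88 to 0.82) once the 5 stromal-marker cells of each library were left out. Without such cells the ratio was 0.77 in the Col1a1-led cluster and 0.74 in the dendritic cell-like cluster. Clustering with the members let in gave a lowest Txnip log2 ratio of 0.18, and clustering at resolution 0.5 gave 0.26, both without intervals. In the centred clusters and the marker gates Txnip was above counting error throughout. Its log2 ratio ran from 0.69 to 1.16 over the 5 centred clusters and from 0.40 to 0.80 over the 4 marker gates, where cells past the Ly6c2 limit alone had 0.40 (0.15 to 0.64).

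Akr1b3 and Mlxip had ratios on both sides of 0 within the 4 clusters. Akr1b3 log2 ratios ran from -0.28 in the dendritic cell-like cluster to 0.46 in the Igfbp3-led cluster, and every interval took in 0. Without stromal-marker cells, Akr1b3 in the Col1a1-led cluster moved to 0.61 (0.06 to 1.27) from 0.06 with them. Over the 4 marker gates Akr1b3 ran from 0.23 to 0.66, with 3 intervals above 0, and over the 5 centred clusters from -0.20 to 0.82. Mlxip ratios ran from -0.64 in the Col1a1-led cluster to 0.68 in the monocyte-like cluster, where 54 UMIs were counted in diabetic and 44 in non-diabetic cells. At least 1.5-fold higher in diabetic cells were 3 members in each cluster. These were Glo1 and Arrdc4 throughout, with Mlxip in the monocyte-like cluster and Txnip in the other 3. The share of all measured genes past that fold was 10.3% in the monocyte-like, 13.5% in the Col1a1-led, 10.0% in the dendritic cell-like and 22.3% in the Igfbp3-led cluster. At least 1.5-fold lower were 12.9%, 20.7%, 15.9% and 16.8% of genes in the same clusters. Mlxip in the Col1a1-led cluster, at -0.64 (-1.47 to 0.39), was the only member lower by that fold.

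**Figure D2:**
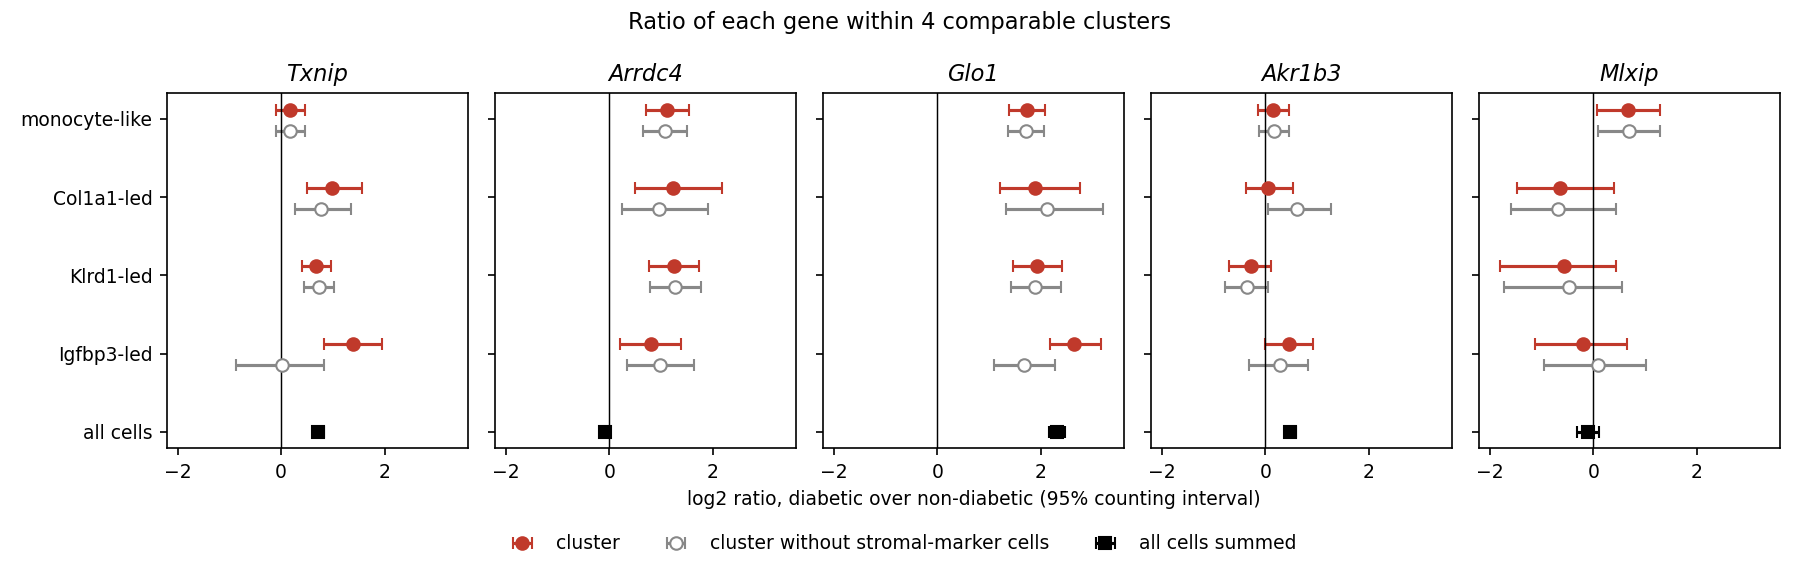
Log2 ratio of diabetic over non-diabetic CPM for each gene in the 4 comparable clusters (red), in the same clusters without cells carrying at least 3 stromal-marker UMIs (open grey), and over all cells (black), with 95% counting intervals. Glo1 lies right of 0 in every cluster, Arrdc4 does so in the clusters but not in the sum of all cells, and Txnip in the Igfbp3-led cluster moves to 0.02 without the stromal-marker cells.

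Levels were next set side by side over 19 groups of at least 30 cells of 1 cluster and 1 library, 11 diabetic and 8 non-diabetic. Diabetic Glo1 levels ran from 79.9 CPM in the Stfa3-led cluster to 199 CPM in the Igfbp3-led cluster. Non-diabetic Glo1 levels ran from 6.29 CPM in the Inhba-led cluster to 38.8 CPM in the monocyte-like cluster. Every diabetic group thus lay above every non-diabetic group. Of neighbours in the order of Glo1 levels, 9 of 10 diabetic and 7 of 7 non-diabetic ones had overlapping intervals.

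Txnip levels of the libraries overlapped, from 20.04 to 263 CPM over the diabetic groups and from 21.2 to 108 CPM over the non-diabetic groups. Its highest level was 263 CPM, in the diabetic Cx3cr1-led cluster, which gave 29.7% of all diabetic Txnip UMIs from 12.6% of the cells. The 15 non-diabetic cells of that cluster stood at 207 CPM, from 36 UMIs, so Txnip was high in this cluster in each library. Its lowest diabetic level was in the Nrg1-led cluster, beside 21.2 CPM in the Gpat3-led and 24.4 CPM in the Inhba-led cluster of the non-diabetic library. The intervals of these 3 groups overlapped. Txnip was among the 10 leading genes of the Cx3cr1-led cluster although it was left out of the genes used for clustering.

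The highest Arrdc4 level, unlike that of Txnip, was in the non-diabetic library. In the Inhba-led cluster of the non-diabetic library, also led by Il23a and Sema3c, Arrdc4 reached 221 CPM and gave 45.3% of all non-diabetic Arrdc4 UMIs from 18.9% of the cells. The Gpat3-led non-diabetic cluster followed at 101 CPM, and the other 6 non-diabetic groups lay at 54.5 CPM or less. Diabetic Arrdc4 levels ran from 39.1 CPM in the Ube2c-led cluster to 96.3 CPM in the Nrg1-led cluster, 2.46-fold from lowest to highest, against 7.19-fold over the non-diabetic groups. All 10 neighbours in the diabetic order overlapped in their intervals. With the Inhba-led cluster left out of both libraries, the Arrdc4 log2 ratio over all cells moved to 0.52.

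**Figure D3:**
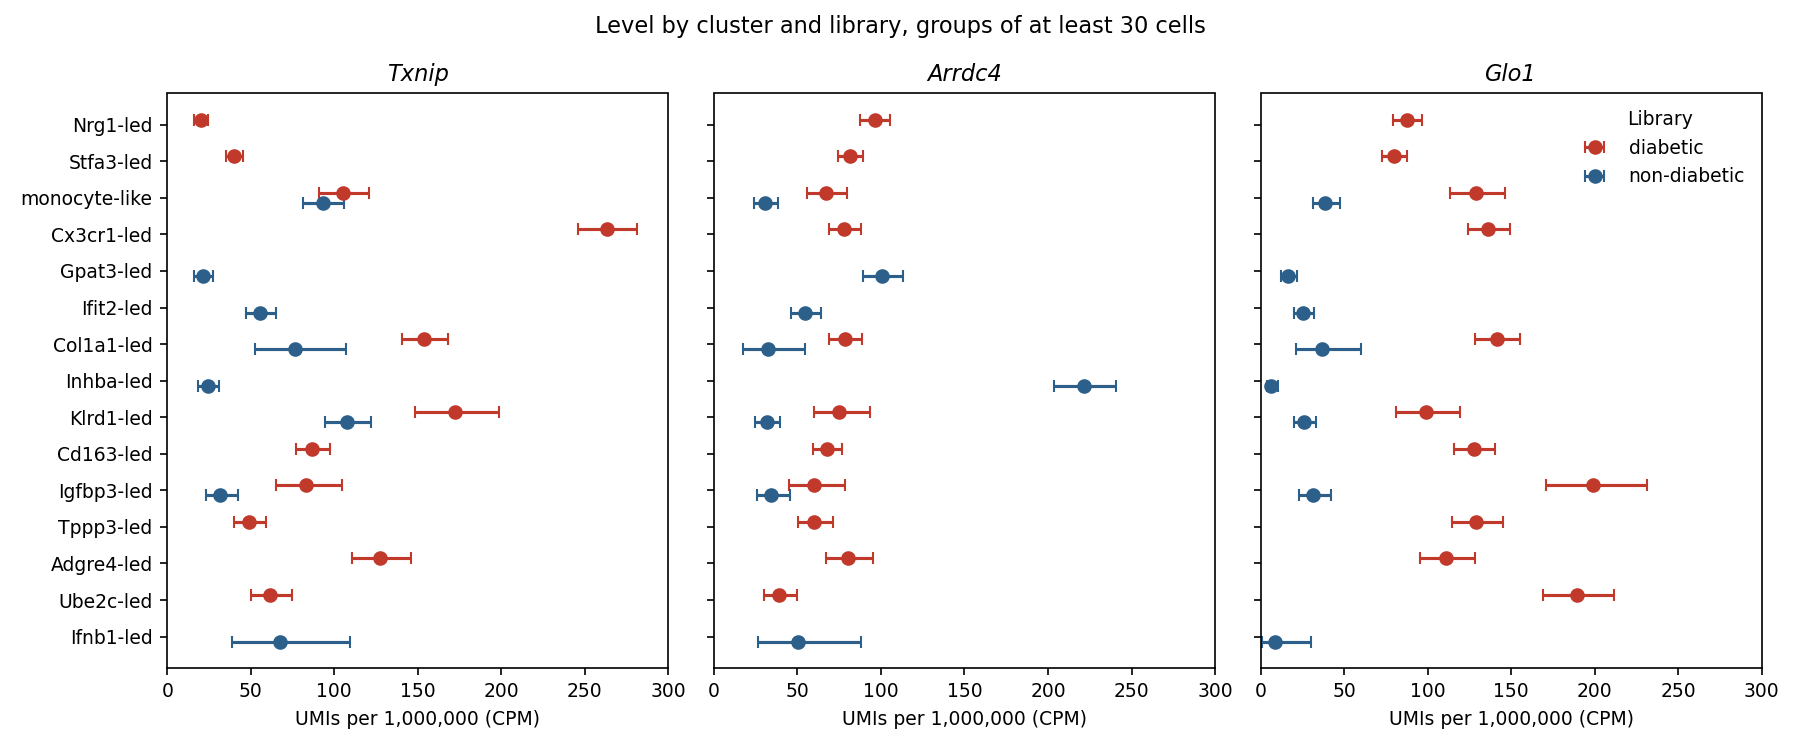
Level of Txnip, Arrdc4 and Glo1 in CPM in each cluster, diabetic library red and above, non-diabetic library blue and below, with exact 95% Poisson intervals; groups under 30 cells are not drawn. Every diabetic Glo1 point lies right of every non-diabetic point, Txnip peaks at 263 CPM in the diabetic Cx3cr1-led cluster, and Arrdc4 peaks at 221 CPM in the non-diabetic Inhba-led cluster.

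The correlation of log2(CPM + 1) between Txnip and Arrdc4 was -0.27 over the 19 groups, -0.0047 over the 11 diabetic and -0.76 over the 8 non-diabetic groups. Glo1 and Akr1b3 varied together, with r of 0.79 over the diabetic and 0.95 over the non-diabetic groups. Groups share libraries and depth, so these values only describe them. Akr1b3 was highest at 185 CPM in the diabetic Ube2c-led cluster, whose leading genes include cell cycle genes, and lowest at 12.6 CPM in the non-diabetic Inhba-led cluster. Mlxip stayed between 9.16 and 28.2 CPM in diabetic and between 14.1 and 50.5 CPM in non-diabetic groups, the highest in a shallow Ifnb1-led cluster with 12 UMIs. Among 5319 genes, those whose levels were most like Txnip over the 19 groups were Phax, Nsrp1 and Ncbp3, each at r of 0.80. Most like Arrdc4 was Rasa2 at r of 0.79, most like Glo1 was Rex1bd at 0.93, most like Akr1b3 was Acaa2 at 0.95 and most like Mlxip was Senp2 at 0.84.

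The genes beside Glo1 on chromosome 17 were looked at next. GENCODE M21 places Glo1 at chr17:30584936-30626871 on the minus strand of GRCm38, so the RefSeq start used for the promoter lies inside this longer gene model. Btbd9, whose start lies 50.4 kb away, stood at 42.7 CPM in diabetic and 27.7 CPM in non-diabetic cells, a log2 ratio of 0.62 (0.46 to 0.78). Btbd9 was higher in the 4 clusters too, with log2 ratios of 0.27, 1.24, 0.88 and 0.92 in the order given above. Of the 6960 genes measured in each cluster, 11.1% were higher by any amount in all 4. Dnah8, an axonemal dynein gene that runs on the opposite strand and shares 2518 bases with Glo1, had 24 UMIs in diabetic and 1 UMI in non-diabetic cells, a log2 ratio of 3.05 (0.99 to 8.97). Whether reads were counted by strand is not stated, so reads of Glo1 and Dnah8 in the shared stretch may not have been told apart. Farther out, Abcg1 had a log2 ratio of 0.24 and Zfand3 of -0.02. Of 11 measured genes within 1 Mb, 2 were at least 1.5-fold higher and 1, Cmtr1, was lower at -1.05. Among all measured genes the shares were 18.7% higher and 12.9% lower, so these counts give little to read.

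**Figure D4:**
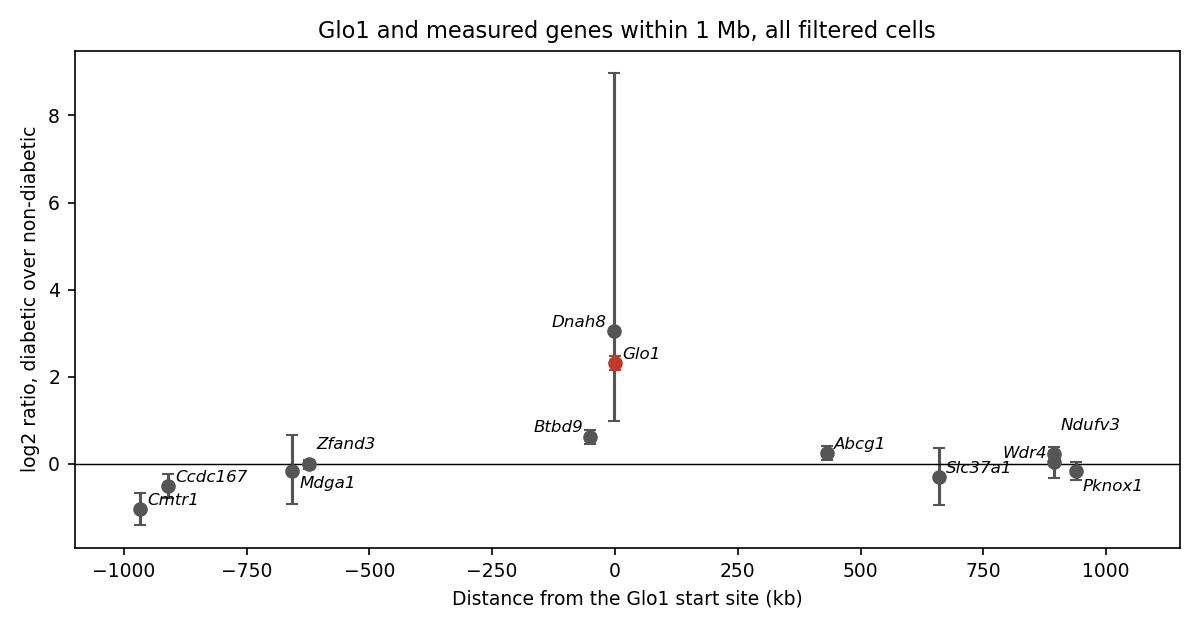
Log2 ratio of diabetic over non-diabetic CPM over all filtered cells for Glo1 (red) and the 11 measured genes within 1 Mb (grey), by the distance of their start from that of Glo1 in kb, with 95% counting intervals. Dnah8 at 3.05, Glo1 at 2.31 and Btbd9 at 0.62 are the points highest above 0, and genes farther out lie at or below 0.24.

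The genes near the other members differed from member to member, beside the same 18.7% higher and 12.9% lower among all measured genes. Txnip, at chr3:96557957-96561883 on the plus strand, is wholly overlapped by the antisense gene Gm15441, which had 51 diabetic and 13 non-diabetic UMIs and whose reads could not be told from those of Txnip if strand was not used. Its measured neighbours include Polr3gl at a log2 ratio of 0.78 and Lix1l at 1.10, and 13 of 44 within 1 Mb were higher and 4 lower. Polr3gl was at least 1.5-fold higher in all 4 clusters, from 0.60 to 1.15, while Lix1l ran from -1.08 to 2.93. Near Akr1b3, at chr6:34302434-34317478, 5 of 12 were higher and none lower, among them its relative Akr1b8 at 1.20. Over the 4 clusters Akr1b8 ran from -2.64 to 4.23, from 6 to 133 UMIs a cluster. It was above 0 in the Igfbp3-led cluster alone. None of the 2 measured neighbours of Arrdc4, at chr7:68736995-68749241, passed 1.5-fold. Near Mlxip, at chr5:123394798-123457932, 5 of 33 were higher and 7 lower. Transcripts at least 95% identical to Akr1b3 over at least 200 bases belong to 4 gene models that the matrices do not list, and the same holds for 2 gene models and Glo1, so these counts could hold or lose reads of copies.

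The wider pathways were read against the same background shares of 18.7% higher and 12.9% lower. Of 7 genes of the wider MondoA and Mlx network, none was at least 1.5-fold higher and 1 was lower. That was Mlxipl, at 0.296 CPM in diabetic and 0.972 CPM in non-diabetic cells, from 9 and 15 UMIs. Mlx itself, the obligate partner of MondoA, had a log2 ratio of -0.01, and Mxd1, a repressor of the same network, had -0.55. None of the 3 other measured alpha-arrestins passed the fold, with Arrdc1 at 0.21. Among 4 measured other carbohydrate-response genes, Pfkfb3, which makes the activator of phosphofructokinase, had 1.20 and Klf10, a zinc finger repressor, had -0.76. Klf10 was lower in all 4 clusters, with log2 ratios of -1.14, -0.55, -1.61 and -0.94.

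In the thioredoxin system 3 of 11 genes were at least 1.5-fold higher and none lower, with a median log2 ratio of 0.35. Prdx1, a peroxiredoxin, stood at 1687 CPM in diabetic and 656 CPM in non-diabetic cells, a log2 ratio of 1.36, but its ratios in the 4 clusters ran from -1.50 to 2.13. Of 7 genes of the glyoxalase route and glutathione supply, 3 were higher and none lower, with a median of 0.45. Hagh, glyoxalase II, which finishes the reaction that Glo1 begins, stood at 45.6 CPM in diabetic and 21.3 CPM in non-diabetic cells, a log2 ratio of 1.10. It was above 0 in all 4 clusters, from 0.32 to 1.07, as were 11.1% of the 6960 genes measured in each. Gclm and Gclc, the subunits of the enzyme that starts glutathione synthesis, had log2 ratios of 1.66 and 0.92 over all cells, and from -0.15 to 2.13 and from -0.49 to 1.82 over the 4 clusters. Gsr had 0.45 over all cells and from 0.64 to 1.80 in the 4 clusters. For Prdx1, Hagh, Gclm, Gclc and Gsr the highest cluster ratio was in the Igfbp3-led cluster. These genes were not read without the stromal-marker cells.

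Of 9 measured genes of glucose entry and phosphorylation none was at least 1.5-fold higher and 2 were lower, Slc2a6 at -0.80 and Hk2, hexokinase 2, at -0.59. Slc2a1, the main glucose carrier of macrophages, stood at 164 CPM in diabetic and 146 CPM in non-diabetic cells, a log2 ratio of 0.16. In the polyol and aldo-keto reductase list 1 of 5 was higher over all cells, Akr1b8, which was above 0 in only 1 of the 4 clusters. Khk, which phosphorylates fructose, had 0.08. Of 7 glucocorticoid-induced genes, listed because glucocorticoids also raise Txnip, none was higher and 2 were lower, Klf9 at -0.91 and Zbtb16 at 0.789 CPM in diabetic and 1.75 CPM in non-diabetic cells. Tsc22d3, which encodes GILZ, had -0.11.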

How the data were processed

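Single-cell 3' libraries were made on the 10x Chromium platform, 1 for each condition, per the labels' protocols. The deposited values are whole UMI counts, 1 matrix a library, which the file headers credit to Cell Ranger software version 3.0.2. Per the submitters' processing notes the build was mm10. Neither the annotation version nor the use of strand is given in the sources used here. The members and gene lists were chosen with earlier results of these data known.

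Barcodes were kept from 500 genes upwards and below 10% mitochondrial UMIs. Scrublet marked 4 diabetic and 2 non-diabetic cells as doublets; these were too few to show that it worked, so none was removed and doublets may remain. Counts were summed per library or cluster and divided by the sum of all genes to give CPM, with exact Poisson intervals. Log2 ratios used sums with 0.5 added, and conditional exact binomial intervals. Measured genes had 20 or more UMIs over both libraries. Shares of cells have Clopper-Pearson intervals. UMIs are not spread evenly over cells and mice, so intervals cover counting error only. Clusters were drawn jointly with scanpy 1.11.5 and leidenalg 0.10.2 from 2000 variable genes without the 5 members, 30 components, 15 neighbours and resolution 1, with no batch correction. Of the members, Txnip would otherwise have been among the variable genes. Markers were taken at 2-fold or more over other cells.

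Named genes were the members, up to 4 genes of each list at 20 CPM or more with the largest ratios, the genes most alike in level, near neighbours and cluster leaders. Some list genes outside that rule (Mlx, Mlxipl, Zbtb16) were named after their values were seen. The leading genes of the monocyte-like cluster are given only in part. Positions come from GENCODE M21 and promoters from RefSeq, both on GRCm38. Copies were sought with BLAST 2.17.0. Alternative scalings used edgeR 4.0.16 and DESeq2 1.42.0, with no test. The interval code was tested on simulated data.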

Additional observations from a re-analysis of the deposited data

Results flagged for a closer look

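The barcodes outside the filter, 459 diabetic and 903 non-diabetic, take part in no comparison above, and they too held the genes at unlike levels. Txnip stood at 160.6 CPM in diabetic barcodes and 83.1 CPM in non-diabetic barcodes outside the filter, from 208 and 177 UMIs. Glo1 stood at 49.4 CPM in diabetic barcodes and 9.39 CPM in non-diabetic barcodes outside the filter, a log2 ratio of 2.37 (1.65 to 3.20). Both were picked out because they exceed the level of the non-diabetic library in data that the report leaves aside. Arrdc4, Akr1b3 and Mlxip had intervals of the ratio that took in 0 there.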

How the results depend on the processing

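Over all cells, Glo1 kept a log2 ratio between 2.09 and 2.56 under the alternatives tried. A marker rule set aside the Stfa3-led, Retnlg-led, dendritic cell-like and Igfbp3-led clusters, the last 2 being comparable clusters. In each, a larger share of another class's markers than of monocyte or macrophage markers was 2-fold up. That does not make every cell in them non-monocyte. Summed classical monocyte markers stood at 2538 and 2176 CPM in the Stfa3-led and Retnlg-led clusters. They stood at 1546 and 5855 CPM in the dendritic cell-like and Igfbp3-led clusters. The Glo1 ratio was 2.49 without the set-aside clusters, 2.56 after thinning and 2.09 with comparable clusters weighted equally. It was 2.15 without clusters over 90% from 1 library and 2.11 without the Inhba-led cluster. Its median over comparable clusters ran from 1.71 to 2.29. In the same order Arrdc4 had -0.35, -0.40, 1.12, 0.92 and 0.52, and -0.22 as a mean of per-cell CPM. Akr1b3 had 0.82, 0.62, 0.10, 0.35 and 0.28. Txnip had 1.02 without the set-aside clusters, 0.83 without 1-library clusters, 0.56 without the Inhba-led cluster and 0.57 with a filter of 1000 genes and 5% mitochondrial UMIs. Mlxip had 0.15 without 1-library clusters. The count of members past the fold was 1, not 2, at that stricter filter, without the Inhba-led cluster and at 2-fold. It was 3 without the set-aside clusters, after thinning, with equal weights and without 1-library clusters.

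Over comparable clusters, the median for Txnip was 0.43 with at least 60 cells and 0.18 without stromal-marker cells, where the Col1a1-led cluster drops below 30 non-diabetic cells and 3 clusters remain (0.46 with all 4), an alternative chosen after seeing the data, as was leaving out the Inhba-led cluster and the shared barcodes. The Arrdc4 median was 0.14 with clusters centred within library, 0.19 with marker gates and 0.56 after thinning. The Akr1b3 median was 0.55 with centred clusters. The share of genes past 1.5-fold in either direction was 31.6%, against 47.9% with at least 1 UMI and 25.02% with at least 100 UMIs. The causes were not tested, beyond that each setting uses fewer or other cells or genes. No paired analysis was possible because each condition is 1 library. Depth limits Mlxip most, with 10 diabetic UMIs in the dendritic cell-like cluster.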
